A study of Mus musculus with 8 samples.

Results

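Voltage-gated sodium and calcium channels are built from a pore-forming alpha subunit and from auxiliary subunits, and the transcripts of both kinds were compared between the right cortex of sham-operated mice (Sham) and of mice with bilateral carotid artery stenosis (BCAS). The genes were chosen by their symbols, which took every sodium channel gene named Scn with a number and the letter a or b and the calcium channel genes Cacna1a to Cacna1i and those of the Cacna2d, Cacnb and Cacng series, 39 of the 54752 genes counted, of which 37 are described. These fall into 6 classes, with 9 sodium pore genes, 3 sodium beta genes, 9 calcium pore genes, 4 alpha2delta genes, 4 calcium beta genes and 8 gamma genes. Of the 37, 33 had enough counts to be tested, and Scn4a, Scn11a, Cacna1f and Cacng1 did not.

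All 8 mice were adult male wild-type C57BL/6 animals (C57BL/6 J in the study's methods), 4 in each group, and each library held the right cortex of 1 mouse at 3 weeks. In BCAS a microcoil around each common carotid artery narrows the vessel so that less blood reaches the brain, and the narrower coil lay on the right, the side sequenced here. Sham mice had the operation without the stenosis. The libraries held 16759364 to 21794435 counts, and 3 counts in the smallest library, the limit that a count of 0 allows, came to 0.179 CPM (counts scaled to 1000000 per library). That limit covers counting error only.

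The pore of a voltage-gated sodium channel opens when the membrane depolarizes and carries the upstroke of the action potential, and its beta subunits set gating and anchor the channel in the membrane. Voltage-gated calcium channels turn depolarization into calcium entry, at presynaptic terminals for the P/Q and N types, in dendrites and cell bodies for the L and R types, and near the resting potential for the T type. Their alpha2delta and beta subunits bring the pore to the surface, whereas most gamma subunits found in brain are better known as TARPs, which carry AMPA-type glutamate receptors to the synapse.

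Many of the channel subunit genes had lower transcript levels in BCAS than in Sham mice. With edgeR's quasi-likelihood test, 15 of the 33 tested subunit genes (45.5%) fell at an adjusted p under 0.05 and 0 rose, where 12.8% of all 17136 tested genes fell and 19.2% rose. At an unadjusted p under 0.05 the number that rose was also 0, and DESeq2 called 0 higher. The falls were moderate, between 29.4% and 48.6% of the Sham mean, so that 0 of the 15 also passed a log2 fold change of -1, which 1.28% of all genes did (11.0% passed a log2 fold change of 1). With limma-voom and with limma on log2(CPM + 1), 1 gene passed both thresholds, Scn1a. The median log2 fold change was -0.51 over the 33 subunit genes and -0.0063 over all genes, and 27 of the 33 had a negative value against 50.5% of all genes. In 16 of the 33 every BCAS mouse lay below every Sham mouse (16.3% of all genes), and in 0 every BCAS mouse lay above (18.5% of all genes). The extra gene of these 16 was Scn2b. In bulk tissue, fewer neurons and less channel RNA per neuron cannot be told apart.

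The 4 BCAS mice did not contribute equally. In all 15 genes that fell, BCAS mouse 1 had the lowest level and BCAS mouse 2 the highest of the 4, and the median log2 level relative to the Sham mean was -1.25, -0.37, -0.68 and -0.76 in BCAS mice 1 to 4. The same order held for the summed level of 12 pan-neuronal marker genes, at 4072, 8992, 6913 and 6391 CPM, against 10422 to 11619 CPM in Sham mice. The plot of each gene by mouse shows these values.

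**Figure D1:**
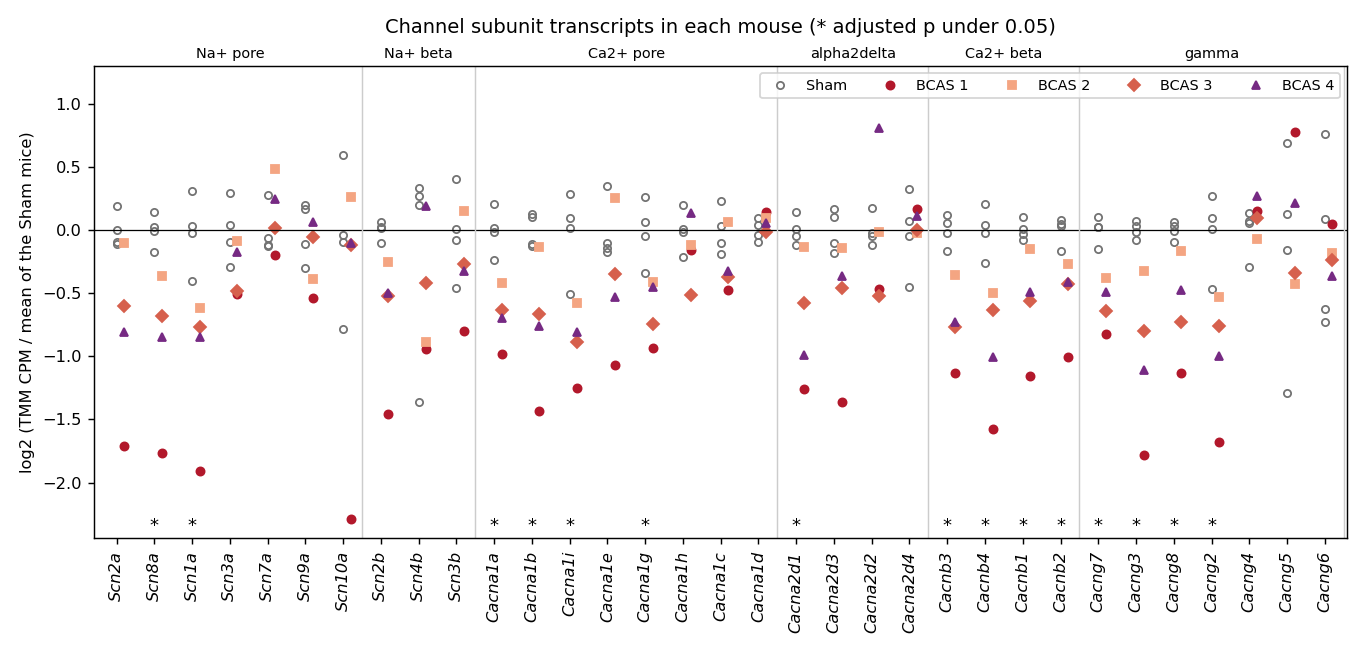
Level of each of the 33 tested subunit genes in each mouse as the log2 of TMM-normalized CPM over the mean of the Sham mice, grouped by class, with open circles for Sham mice, filled symbols for BCAS mice 1 to 4 and an asterisk where the adjusted p was under 0.05. In the 15 genes with an asterisk, BCAS mouse 1 is the lowest symbol and BCAS mouse 2 lies closest to the Sham mice, with all 4 below every Sham mouse.

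The number of genes called depended on which mice were compared. With each mouse left out in turn, between 4 and 20 subunit genes fell. Cacna1a, Cacna1i, Cacnb3 and Cacng7 were called lower in every one of the 17 alternative fits, and all 15 kept a negative fold change in each. Without Sham mouse 1, 2, 3 or 4 the number that fell was 4, 5, 8 and 4, and without BCAS mouse 1, 2, 3 or 4 it was 15, 20, 6 and 5. The count over all genes moved with it, since 2.37%, 2.95%, 8.21% and 3.09% of all genes fell without Sham mouse 1, 2, 3 or 4, and 11.2%, 20.9%, 4.19% and 4.03% without BCAS mouse 1, 2, 3 or 4.

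To show the sequence context of genes that moved together, the 250 bases before the transcription start in RefSeq (GRCm38.p6) are given for the gene of smallest adjusted p with an entry among the sodium pore, calcium pore, calcium beta and gamma genes that fell, and for Cacna1d, which was not called. Capitals mark GC boxes (GGGCGG) and CCAAT boxes (CCAAT), searched on both strands, and these motifs do not overlap each other in the runs shown. The windows lie at chr2:66440838-66441087 on the minus strand for Scn1a, chr15:80286988-80287237 on the plus strand for Cacna1i, chr15:98634517-98634766 on the plus strand for Cacnb3, chr7:3332575-3332824 on the plus strand for Cacng7 and chr14:30491157-30491406 on the minus strand for Cacna1d, each read 5′ to 3′ along the gene. RefSeq gives 2 starts each for Cacnb3 and Cacna1d, and the one shown is that whose next 30 bases stand in more of the GENCODE transcripts, 1 against 0 for Cacnb3 and 2 against 1 for Cacna1d. The Cacnb3 and Cacna1d windows lie wholly inside the spans over which these genes were counted, and for Cacng7 those 30 bases were in 0 transcripts.
Scn1a: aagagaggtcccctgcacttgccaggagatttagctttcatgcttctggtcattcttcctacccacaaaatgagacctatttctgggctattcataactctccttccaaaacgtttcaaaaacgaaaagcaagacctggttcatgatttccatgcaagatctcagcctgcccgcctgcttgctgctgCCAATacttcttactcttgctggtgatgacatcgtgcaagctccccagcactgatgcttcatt
Cacna1i: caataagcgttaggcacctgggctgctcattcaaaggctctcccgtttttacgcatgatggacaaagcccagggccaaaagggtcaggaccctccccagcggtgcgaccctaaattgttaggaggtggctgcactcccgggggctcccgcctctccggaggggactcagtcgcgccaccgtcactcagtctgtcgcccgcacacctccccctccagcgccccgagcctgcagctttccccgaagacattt
Cacnb3: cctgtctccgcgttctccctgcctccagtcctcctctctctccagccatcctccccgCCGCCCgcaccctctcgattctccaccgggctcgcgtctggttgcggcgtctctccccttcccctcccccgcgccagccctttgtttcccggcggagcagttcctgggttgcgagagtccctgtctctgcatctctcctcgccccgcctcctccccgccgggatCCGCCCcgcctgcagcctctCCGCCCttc
Cacng7: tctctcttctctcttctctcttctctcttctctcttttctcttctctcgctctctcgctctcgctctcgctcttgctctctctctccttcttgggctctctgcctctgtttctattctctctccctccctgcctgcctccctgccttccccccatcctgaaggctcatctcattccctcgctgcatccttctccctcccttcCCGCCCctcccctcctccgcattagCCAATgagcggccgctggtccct
Cacna1d: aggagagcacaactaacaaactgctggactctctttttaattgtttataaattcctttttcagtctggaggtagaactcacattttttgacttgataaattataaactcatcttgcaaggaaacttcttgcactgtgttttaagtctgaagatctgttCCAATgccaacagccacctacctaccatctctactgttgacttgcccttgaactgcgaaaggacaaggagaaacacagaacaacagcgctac

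The Cacnb3 window held 3 GC boxes and had a GC content of 70.4%, the Cacng7 window held 1 GC box and 1 CCAAT box, the Scn1a and Cacna1d windows held 1 CCAAT box each, and the Cacna1i window held neither motif. RefSeq entries were matched for 29 of the 37 genes, with 40 windows. A GC box stood in 35% of these windows and in 32.7% of all 32851 windows, and a CCAAT box in 25% against 33.8%. A TATA box (TATAAA) stood in 5% against 12.4%, and the cyclic AMP response element TGACGTCA in 0 of the 40 against 1.55% of all windows. By gene, a GC box was found in 7 of 13 genes that fell and in 6 of 13 tested genes that were not called, a CCAAT box in 5 and 4, and a TATA box in 0 and 2. The Cacna1d window holds TATAAA at 2 places on the strand shown and at 1 on the other, left in lower case here and partly overlapping. These matches describe letters in a window and were not tied to any binding measurement.

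Among the sodium pore genes, which form the channels of the axon initial segment and of nodes, 2 of the 7 tested fell, Scn1a and Scn8a, where 12.8% of all genes fell. Leaving out 1 mouse gave 0 to 3, where 2.37% to 20.9% of all genes fell. The replicate block gave 0, where 1127 of all 17136 genes fell. Neither gene was called without Sham mouse 1, 2 or 4 or without BCAS mouse 3 or 4. Scn2a, Scn8a and Scn1a were the 3 with the highest length-scaled level in Sham mice, at 36.3 ± 3.56, 28.6 ± 2.55 and 22.2 ± 4.43 CPM per exon kilobase (SD, n = 4). All 4 Sham mice had this order, although the ranges of Scn8a and Scn1a overlapped. Scn3a, best known from the fetal brain, followed at 4.62 CPM per exon kilobase, and the other 5 were below 1.

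Scn1a (chr2:66270778-66440840 on mm10, minus strand) encodes the sodium channel on which fast-spiking interneurons depend. Its TMM-normalized level was 308, 253, 187 and 244 CPM in Sham mice 1 to 4 and 66.0, 161, 145 and 138 CPM in BCAS mice 1 to 4. Every BCAS mouse was below the lowest Sham mouse, mouse 3, and the log2 fold change was -0.96 ± 0.26 (SE; adjusted p = 0.0258), the largest fall of the 33 genes. The summed level of 6 interneuron markers was 903 to 1163 CPM in Sham and 638 to 973 CPM in BCAS mice. Of the 6, 3 fell, Gad1, Sst and Pvalb (12.8% of all genes fell). The others were not called, with log2 fold changes of 0.02 for Gad2 (adjusted p = 0.958), -0.28 for Slc32a1 (adjusted p = 0.332) and -0.78 for Vip (adjusted p = 0.0661). Pvalb, the marker of fast-spiking interneurons, had the largest fall of the 6. It was at 56.2, 33.3, 20.9 and 34.9 CPM in Sham mice and at 7.12, 23.4, 21.7 and 10.9 CPM in BCAS mice (log2 fold change -1.20, adjusted p = 0.0495), with BCAS mice 2 and 3 above Sham mouse 3. The part of these cells in the fall of Scn1a was not tested.

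Scn8a (chr15:100869858-101045938, plus strand) encodes the main channel of the mature initial segment and of nodes of Ranvier. It stood at 496, 449, 399 and 459 CPM in Sham mice and at 132, 350, 280 and 250 CPM in BCAS mice 1 to 4. The groups did not overlap, with a log2 fold change of -0.83 ± 0.25 (SE; adjusted p = 0.0340). Scn2a (chr2:65620771-65767447, plus strand), the channel of excitatory neurons and unmyelinated axons, was at 432, 462, 526 and 427 CPM in Sham mice and at 141, 430, 303 and 264 CPM in BCAS mice. BCAS mouse 2 lay within the Sham range, and the log2 fold change of -0.70 ± 0.28 (SE) did not pass the test (adjusted p = 0.0815), although it did with DESeq2 and without BCAS mouse 2.

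The remaining sodium pore genes did not pass the test. Scn3a had a log2 fold change of -0.30 (adjusted p = 0.134). Scn7a, a sodium-sensing relative expressed in glia, had 0.16 (adjusted p = 0.531), Scn9a, a channel of pain-sensing neurons, -0.21 (adjusted p = 0.415) and Scn10a, of the same neurons, -0.32 (adjusted p = 0.646). Scn1a, Scn2a, Scn3a, Scn7a and Scn9a are neighbours on chromosome 2, from 65457118 to 66784914, so that genes that fell and genes that were not called lay in the same cluster. The log2 ratio of Scn3a to Scn2a per exon kilobase was -3.17, -3.07, -2.87 and -2.82 in the Sham group and -1.77, -2.96, -2.85 and -2.34 in the BCAS group, higher than the Sham mean in 4 of 4 BCAS mice, but the ranges overlapped (difference 0.50, exact two-sided permutation test p = 0.143, adjusted p = 0.286 over 10 pairs).

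Scn11a, of pain-sensing neurons, gave 0, 0, 9 and 0 counts in the Sham group and 14, 13, 13 and 7 in the BCAS group, and Scn4a, the skeletal muscle channel gene, 0 counts in all Sham mice and 9, 0, 9 and 1 in the BCAS group. Neither was tested in the main comparison. With no filter all 37 genes were tested in all mice and 0 were called higher, where 3314 of 32537 genes were. The skeletal muscle marker genes were low in both groups, at 3.47 to 18.5 CPM in sum. All the Sham counts of Scn11a came from mouse 3, so that without this mouse the gene is compared with 0 counts.

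Among the sodium beta genes, 0 of the 3 fell, at an adjusted p under 0.05 by edgeR, where 12.8% of all genes did. All 3 had negative fold changes relative to the library, and relative to neuronal markers all 3 were positive, as were 92.9% of all genes, and none was called. At an unadjusted p under 0.05 there was 1, Scn2b, which DESeq2 and limma on log2(CPM + 1) also called lower. Scn2b took 55.4% of the summed length-scaled level of the 3 in Sham mice, at 62.2 ± 2.95 CPM per exon kilobase (SD, n = 4), above Scn4b and Scn3b in all 4 mice without overlap.

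Scn2b (chr9:45117782-45130070, plus strand), whose subunit is linked to the pore by a disulfide bond, was at 302, 294, 270 and 292 CPM in Sham mice and at 105, 243, 201 and 205 CPM in BCAS mice. These did not overlap, yet the log2 fold change of -0.62 ± 0.22 (SE) stayed just outside the threshold (adjusted p = 0.0558). Scn3b had a log2 fold change of -0.27 (adjusted p = 0.353). Scn4b, which gives the resurgent sodium current of fast-firing neurons and is also abundant in striatum, had -0.44 ± 0.37 (SE; adjusted p = 0.379), with 174, 182, 56.1 and 165 CPM in Sham mice and 74.9, 77.7, 107 and 164 CPM in BCAS mice. Sham mouse 3 had the lowest value of all 8 mice there, and without it the log2 fold change of Scn4b was -0.72 (adjusted p = 0.0769). The summed level of 6 striatal markers was 223, 390, 274 and 258 CPM in Sham mice and 312, 295, 296 and 625 CPM in BCAS mice, the highest in BCAS mouse 4, and its part in the level of Scn4b was not tested.

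Among the calcium pore genes, 4 of the 8 tested fell, the genes of the P/Q type (Cacna1a), the N type (Cacna1b) and 2 of the 3 T-type genes (Cacna1g and Cacna1i), where 12.8% of all genes fell. Those of the L and R types were not called. Leaving out 1 mouse gave 2 to 6 genes, where 2.37% to 20.9% of all genes fell. In Sham mice the length-scaled levels were close together, from 20.5 ± 2.55 for Cacna1a through 16.5 for Cacna1b, 15.7 for Cacna1i, 12.7 for Cacna1e and 10.1 for Cacna1g to 4.97 CPM per exon kilobase for Cacna1d (SD, n = 4). Neighbours in the order from Cacna1a to Cacna1g overlapped between mice, while Cacna1g was above Cacna1h in all 4 without overlap. The plot of length-scaled levels sets these beside the other classes.

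**Figure D2:**
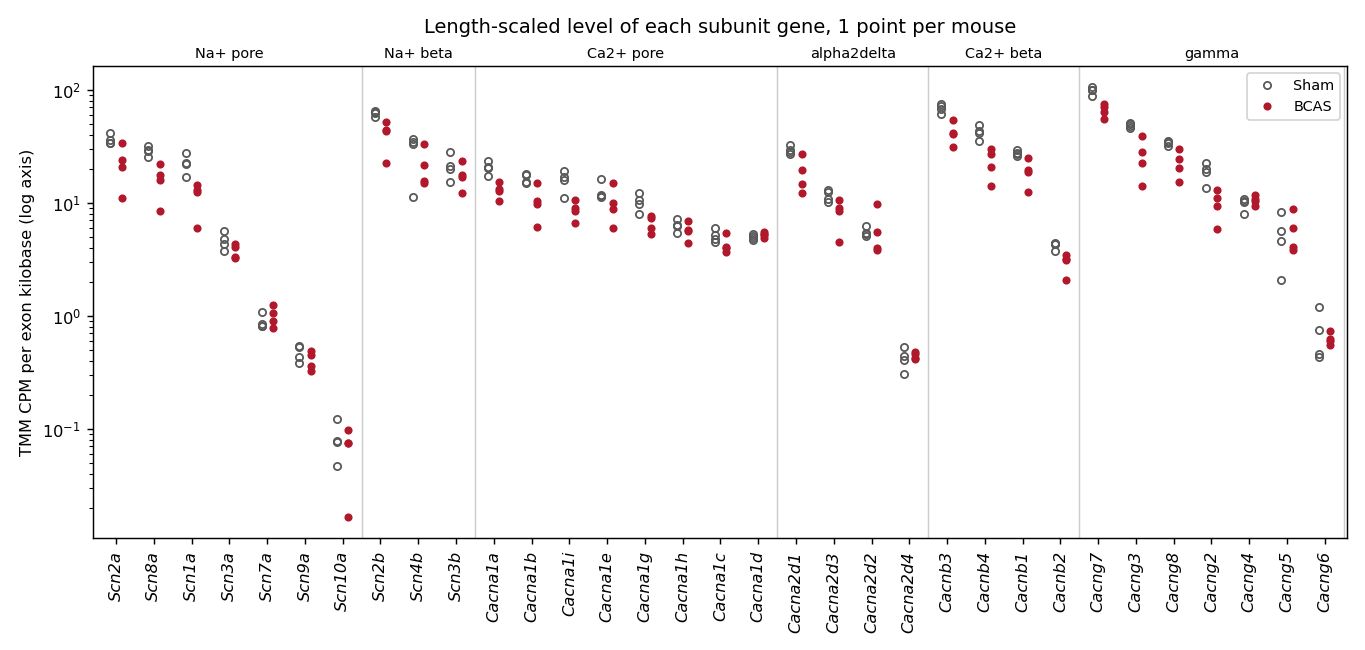
Length-scaled level of each of the 33 tested subunit genes, as TMM-normalized CPM per exon kilobase on a log axis, with 1 point per mouse, open for Sham and filled for BCAS. Cacng7, Cacnb3 and Scn2b stand highest in Sham mice, at means of 98.5, 68.8 and 62.2, and the genes with levels near or below 1 show overlapping groups.

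Cacna1a (chr8:84388440-84640246, plus strand), which opens at most fast central synapses to trigger transmitter release, was at 269, 231, 198 and 236 CPM in Sham mice and at 118, 175, 151 and 144 CPM in BCAS mice. All BCAS mice were below all Sham mice, and the log2 fold change was -0.67 ± 0.14 (SE; adjusted p = 0.00943). An antisense gene covers 3.81% of its exon bases, at a mean of 16.2 counts. Cacna1b (chr2:24603887-24763152, minus strand), which shares the release function at many synapses, was at 176, 150, 179 and 151 CPM in Sham mice and at 60.6, 149, 103 and 96.7 CPM in BCAS mice. BCAS mouse 2 was only just below Sham mice 2 and 4, and the log2 fold change of -0.68 ± 0.23 (SE) was the closest to the threshold of the 15 (adjusted p = 0.0497). The call of Cacna1b held in 8 of the 17 alternative fits.

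Cacna1i (chr15:80287238-80398279, plus strand), a T-type gene largely restricted to brain, was at 189, 156, 109 and 166 CPM in Sham mice and at 65.1, 104, 83.6 and 88.5 CPM in BCAS mice. The 2 groups did not overlap, although Sham mouse 3 and BCAS mouse 2 were near each other, and the log2 fold change was -0.86 ± 0.19 (SE; adjusted p = 0.0116). Cacna1g (chr11:94408391-94474198, minus strand), the T-type gene of burst-firing thalamic relay neurons, was at 107, 98.8, 80.8 and 123 CPM in Sham mice and at 53.5, 76.9, 61.1 and 74.8 CPM in BCAS mice. Its log2 fold change was -0.62 ± 0.15 (SE; adjusted p = 0.0190), again without overlap. The last T-type gene, Cacna1h, had -0.15 ± 0.14 (SE; adjusted p = 0.434), with BCAS mice 1, 2 and 4 inside the Sham range.

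The L-type gene Cacna1d (chr14:30039939-30491455, minus strand), which opens at more negative potentials than Cacna1c, was the steadiest of the class. It was at 58.7, 61.0, 64.5 and 66.9 CPM in Sham mice and at 69.1, 67.0, 62.0 and 65.2 CPM in BCAS mice. The log2 fold change was 0.07 ± 0.07 (SE; adjusted p = 0.494), and another gene on the opposite strand, Chdh, covers 4.67% of its exon bases. Cacna1c, the main L-type gene of the brain, had -0.26 (adjusted p = 0.160) and the R-type gene Cacna1e -0.35 (adjusted p = 0.308). The retinal gene Cacna1f gave 4 to 14 counts in Sham and 4 to 8 in BCAS mice. The log2 ratio of Cacna1d to Cacna1c was -0.04 on average in Sham and 0.30 in BCAS mice, above the Sham mean in 4 of 4 BCAS mice but with overlap (exact two-sided permutation test p = 0.0857, adjusted p = 0.286 over 10 pairs).

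Of the 4 alpha2delta genes, whose products are extracellular and include the targets of gabapentin, Cacna2d1 fell and the other 3 did not pass the test (12.8% of all genes fell). Cacna2d1 (chr5:15934691-16374511, plus strand) had the highest length-scaled level of the class in Sham mice, at 29.3 ± 2.26 CPM per exon kilobase (SD, n = 4), above Cacna2d3, Cacna2d2 and Cacna2d4 in all 4 mice without overlap. It was at 336, 353, 402 and 366 CPM in Sham mice and at 152, 332, 244 and 183 CPM in BCAS mice. BCAS mouse 2 came within a few CPM of Sham mouse 1, and the log2 fold change was -0.68 ± 0.22 (SE; adjusted p = 0.0430), a call that was lost on leaving out any mouse other than BCAS mouse 2.

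Cacna2d3, the next in level, had a log2 fold change of -0.51 (adjusted p = 0.103). Cacna2d2, typical of cerebellum and of interneurons, was at 43.2, 49.5, 42.4 and 40.5 CPM in Sham mice and at 31.7, 43.5, 30.5 and 76.7 CPM in BCAS mice. BCAS mouse 4, which also had the highest striatal marker sum, lay far above the others, and the log2 fold change of 0.05 turned to -0.32 without it (adjusted p = 0.893 with all mice). The interneuron marker sum of BCAS mouse 4, at 973 CPM, was also the highest of the BCAS mice, within the Sham range of 903 to 1163 CPM. The part of striatal tissue or of interneurons in this value was not tested. Cacna2d4, best known from retina, had 0.07 (adjusted p = 0.813) at 3.99 ± 0.861 CPM in Sham and 4.17 ± 0.266 CPM in BCAS mice (SD, n = 4).

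All 4 calcium beta genes fell, where 12.8% of all genes did. That count was 2 with library size alone, where 7.55% of all genes fell, and without Sham mouse 3 or BCAS mouse 3 (8.21% and 4.19% of all genes). It was 1 without Sham mouse 1, 2 or 4 or BCAS mouse 4, where 2.37%, 2.95%, 3.09% and 4.03% of all genes fell. Whether the classes differed was not tested. Relative to neuronal markers their log2 fold changes ran from -0.21 to 0.19 and none was called. Their products are cytoplasmic, hold the pore at the surface and set its inactivation. The order in Sham mice, Cacnb3, Cacnb4, Cacnb1 and Cacnb2, was the same in all 4 mice without overlap, at 68.8 ± 5.75, 42.0 ± 5.57, 27.5 ± 1.49 and 4.19 ± 0.315 CPM per exon kilobase (SD, n = 4).

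Cacnb3 (chr15:98630840-98644529, plus strand), the beta subunit most often paired with N-type pores, was at 299.5, 271, 246 and 287 CPM in Sham mice and at 126, 215, 162 and 166 CPM in BCAS mice. All BCAS mice were clearly below the lowest Sham mouse (log2 fold change -0.72 ± 0.15, SE; adjusted p = 0.0112). Cacnb4 (chr2:52428320-52676831, minus strand), whose loss causes the lethargic mouse, was at 435, 371, 314 and 387 CPM in Sham mice and at 126, 267, 242 and 187 CPM in BCAS mice. Its log2 fold change of -0.87 ± 0.22 (SE; adjusted p = 0.0194) was the largest fall of the class. A gene on the opposite strand covers 16.0% of the exon bases of Cacnb4, but had a mean of 2.0 counts.

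Cacnb1 (chr11:98001508-98023034, minus strand), also the beta subunit of skeletal muscle, was at 122, 125, 118 and 134 CPM in Sham mice and at 55.9, 112, 84.3 and 88.6 CPM in BCAS mice. BCAS mouse 2 was just under the lowest Sham mouse, with a log2 fold change of -0.55 ± 0.18 (SE; adjusted p = 0.0437). Cacnb2 (chr2:14603088-14987908, plus strand), the main beta subunit of heart, was at 49.3, 56.5, 58.5 and 57.4 CPM in Sham mice and at 27.6, 46.0, 41.1 and 41.7 CPM in BCAS mice. The log2 fold change was -0.50 ± 0.15 (SE; adjusted p = 0.0326), the smallest fall among the 15. The log2 ratio of Cacnb4 to Cacnb1 per exon kilobase was 0.60 ± 0.18 in Sham and 0.27 ± 0.19 in BCAS mice (SD, n = 4), below the Sham mean in 4 of 4 BCAS mice, and BCAS mouse 3 overlapped the Sham range (exact two-sided permutation test p = 0.0571, adjusted p = 0.286 over 10 pairs).

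Among the gamma genes, 4 of the 7 tested fell, Cacng2, Cacng3, Cacng7 and Cacng8, where 12.8% of all genes fell. Leaving out 1 mouse gave 1 to 4, where 2.37% to 20.9% of all genes fell, and of the 4 only Cacng7 was called in every alternative fit. These 4 encode TARPs, as do Cacng4 and Cacng5, which were not called, whereas Cacng6 does not. Cacng7 was the highest in Sham mice, at 98.5 ± 7.07 CPM per exon kilobase (SD, n = 4), followed by Cacng3, Cacng8, Cacng2 and Cacng4 in every mouse without overlap between neighbours. Cacng7 (chr7:3332955-3368221, plus strand), a TARP of a type that changes AMPA receptor gating, was at 258, 244, 216 and 244 CPM in Sham mice and at 135, 185, 154 and 171 CPM in BCAS mice. The groups were well apart, and its log2 fold change of -0.58 ± 0.11 (SE) had the smallest adjusted p of the 33 genes (adjusted p = 0.00797).

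Cacng2 (chr15:77991748-78120028, minus strand), which encodes stargazin, the founding TARP, was at 124, 103, 74.5 and 110 CPM in Sham mice and at 32.1, 71.1, 60.7 and 51.4 CPM in BCAS mice. Sham mouse 3 was only just above BCAS mouse 2, with a log2 fold change of -0.93 ± 0.24 (SE; adjusted p = 0.0207), and an antisense gene with a mean of 58.9 counts covers 5.86% of its exon bases. Cacng3 (chr7:122670492-122769393, plus strand), the closest relative of stargazin, was at 138, 134, 128 and 142 CPM in Sham mice and at 39.4, 108, 78.0 and 62.9 CPM in BCAS mice. Its log2 fold change was -0.91 ± 0.25 (SE; adjusted p = 0.0270), with Sham mice close together and BCAS mice widely spread.

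Cacng8 (chr7:3390683-3415648, plus strand), the TARP most abundant in hippocampus, was at 80.8, 82.7, 73.9 and 78.7 CPM in Sham mice and at 36.1, 70.2, 47.6 and 56.9 CPM in BCAS mice. The groups did not overlap (log2 fold change -0.58 ± 0.18, SE; adjusted p = 0.0341). Cacng4, a TARP also made by oligodendrocyte precursors, had a log2 fold change of 0.11 (adjusted p = 0.465) at 28.5 to 38.4 CPM in Sham and 33.3 to 42.1 CPM in BCAS mice. Cacng5 had 0.14 (adjusted p = 0.804) and Cacng6 -0.17 (adjusted p = 0.732). Cacng1, the gamma subunit of the skeletal muscle channel, gave 0 to 4 counts in Sham and 0 to 2 in BCAS mice. Cacng7, Cacng8 and Cacng6 lie side by side on chromosome 7, from 3332955 to 3435667.

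Set side by side, 6 of the 15 tested pore-forming genes and 9 of the 18 tested auxiliary genes fell, of 18 and 19 described, with median log2 fold changes of -0.35 and -0.53, where 12.8% of all genes fell. Without any 1 of the Sham mice, BCAS mouse 3 or BCAS mouse 4 either count was 2 to 4 (2.37% to 8.21% of all genes). Without BCAS mouse 2 the counts were 9 and 11 (20.9% of all genes). The replicate block gave 3 pore-forming genes (1127 of all 17136 genes) and library size alone 5 auxiliary genes (7.55% of all genes). The pore-forming set holds more genes of low level, and the part of level in these counts was not tested. Whether the 2 kinds differed was not tested either, since genes are not replicates. The summed length-scaled level weighs each class by its abundant genes. For the sodium pores it was 98.5, 93.0, 90.6 and 90.7 CPM per exon kilobase in Sham mice 1 to 4, whereas BCAS mice 1 to 4 had 29.9, 76.6, 59.6 and 54.7. For the calcium pores it was 97.3, 88.3, 87.9 and 93.7 in the Sham group, whereas the BCAS group had 49.2, 80.0, 61.3 and 63.6. In all 6 classes every BCAS mouse was below every Sham mouse, and the BCAS mean was 0.592 of the Sham mean for sodium pores, 0.706 for sodium beta, 0.692 for calcium pores, 0.697 for alpha2delta, 0.607 for calcium beta and 0.656 for gamma genes.

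**Figure D3:**
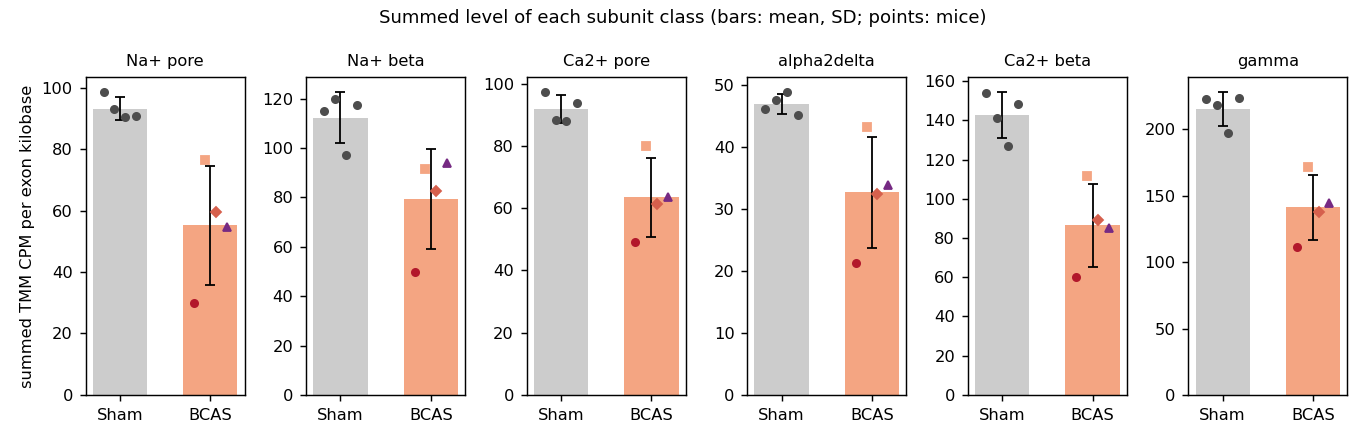
Summed TMM-normalized CPM per exon kilobase over the described genes of each class, with bars for the mean of 4 mice, error bars for the SD and points for the mice. In each class the BCAS bar stands at 0.592 to 0.706 of the Sham bar, with BCAS mouse 1 (circle) lowest and, apart from the sodium beta genes, BCAS mouse 2 (square) highest.

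Ratios of these sums within a mouse do not depend on the scaling of the library. Sodium beta over sodium pore transcripts was 1.20 ± 0.105 in Sham and 1.49 ± 0.246 in BCAS mice (SD, n = 4), with overlapping ranges. Calcium beta over calcium pore transcripts was 1.55 ± 0.0727 in Sham and 1.35 ± 0.101 in BCAS mice, where BCAS mouse 3 at 1.46 overlapped Sham mouse 3 at 1.44. Alpha2delta over calcium pore transcripts was 0.513 ± 0.0407 in Sham and 0.509 ± 0.0513 in BCAS mice. Calcium pore over sodium pore transcripts was 0.985 ± 0.0361 in Sham and 1.22 ± 0.289 in BCAS mice, with BCAS mouse 1 at 1.64 and the others between 1.03 and 1.16.

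The proportions of single subunits were asked of 9 pairs of related genes, with p adjusted over the 10 pairs compared. None of the 9 differed after adjustment (exact two-sided permutation test over 70 arrangements, adjusted p of 0.286 or more), and the ranges of the groups overlapped in all 9. The differences in mean log2 ratio ran from -0.33 for Cacnb4 to Cacnb1 to 0.50 for Scn3a to Scn2a. The smallest p that 4 mice against 4 allow is 0.0286, which after adjustment over 10 pairs needs several pairs to reach it, and a p above the threshold does not show that the proportions were equal.

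**Figure D4:**
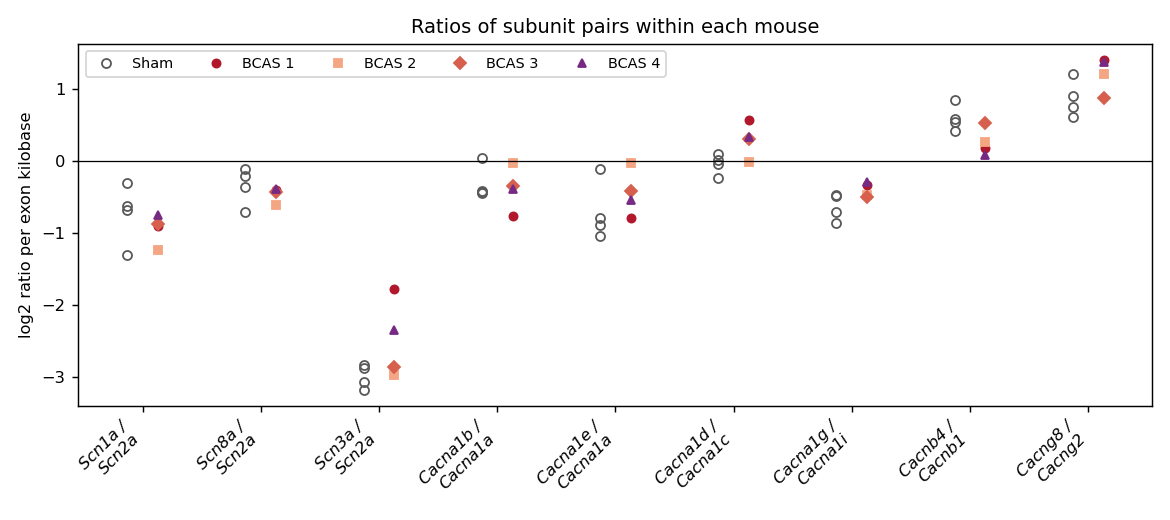
The log2 ratio of the levels per exon kilobase of each of 9 subunit pairs within each mouse, open circles for Sham mice and filled symbols for BCAS mice 1 to 4. The 2 groups overlap in each pair, and the mean ratio of Cacnb4 to Cacnb1 moves from 0.60 to 0.27.

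Many neuronal markers were lower in BCAS mice, and many markers of several other cell types were higher. Of 12 pan-neuronal markers 6 fell, and of 6 excitatory markers 4 fell, with sums of 6184 to 7870 CPM in Sham and 2362 to 5512 CPM in BCAS mice. All 6 microglial markers rose, with sums of 297 to 360 CPM in Sham and 1150 to 4197 CPM in BCAS mice, as did 5 of 6 astrocyte markers (1966 to 2183 against 3209 to 6571 CPM) and 5 of 5 fibroblast markers (51.7 to 73.3 against 135 to 869 CPM). Of 6 leukocyte markers all 4 that were tested rose (5.67 to 9.67 against 44.8 to 333 CPM), and of 5 markers of oligodendrocyte precursors 3 rose (220 to 245 against 270.0 to 415 CPM). Of 6 oligodendrocyte markers 0 were called, and of 5 endothelial and 5 mural markers 1 each rose. Of 6 striatal markers 1 rose, and of 5 tested thalamic markers 1 fell and 2 rose. Over all genes 12.8% fell and 19.2% rose. No marker on these lists was at 0 in all libraries, and the part of these other cells in the falls was not tested. A second fit therefore scaled each library to the geometric mean of the 12 pan-neuronal markers, which moved the median log2 fold change of all genes to 0.76.

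On that scale 0 of the 33 subunit genes were lower, where 0.385% of all genes were, and 5 were higher, where 57.5% of all genes were. The count of lower genes at an unadjusted p under 0.05 and by limma-voom on the same scale was also 0. The median of the subunit genes was 0.16, within the range from -0.31 for Scn1a to 1.04 for Cacng5, and below the median of all genes. The 15 genes that fell on the library scale ran from -0.31 for Scn1a through a median of -0.02 to 0.19 for Cacnb2, and none of them was called. The 5 that were higher were Scn7a at 0.87 ± 0.24 (SE; adjusted p = 0.0175), Cacna1d at 0.85 ± 0.25 (adjusted p = 0.0209), Cacng4 at 0.90 ± 0.28 (adjusted p = 0.0248), Cacna2d2 at 0.78 ± 0.30 (adjusted p = 0.0473) and Cacna2d4 at 0.86 ± 0.33 (adjusted p = 0.0477). These calls depended on single mice, since 0 genes were higher without Sham mouse 2 or 4, 1 without Sham mouse 1 (Scn7a) and 9 without BCAS mouse 2. Of all genes 22.7%, 25.3%, 22.4% and 70.6% were higher in these fits without Sham mouse 2, 4 or 1 or BCAS mouse 2. With the replicate block 2 subunit genes were higher (38.2% of all genes) and with excitatory markers as the scale 10 (74.0% of all genes). The values of the 5 lay near the 0.76 by which all genes shifted, and none of the 5 passed the test on the scale of the whole library.

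**Figure D5:**
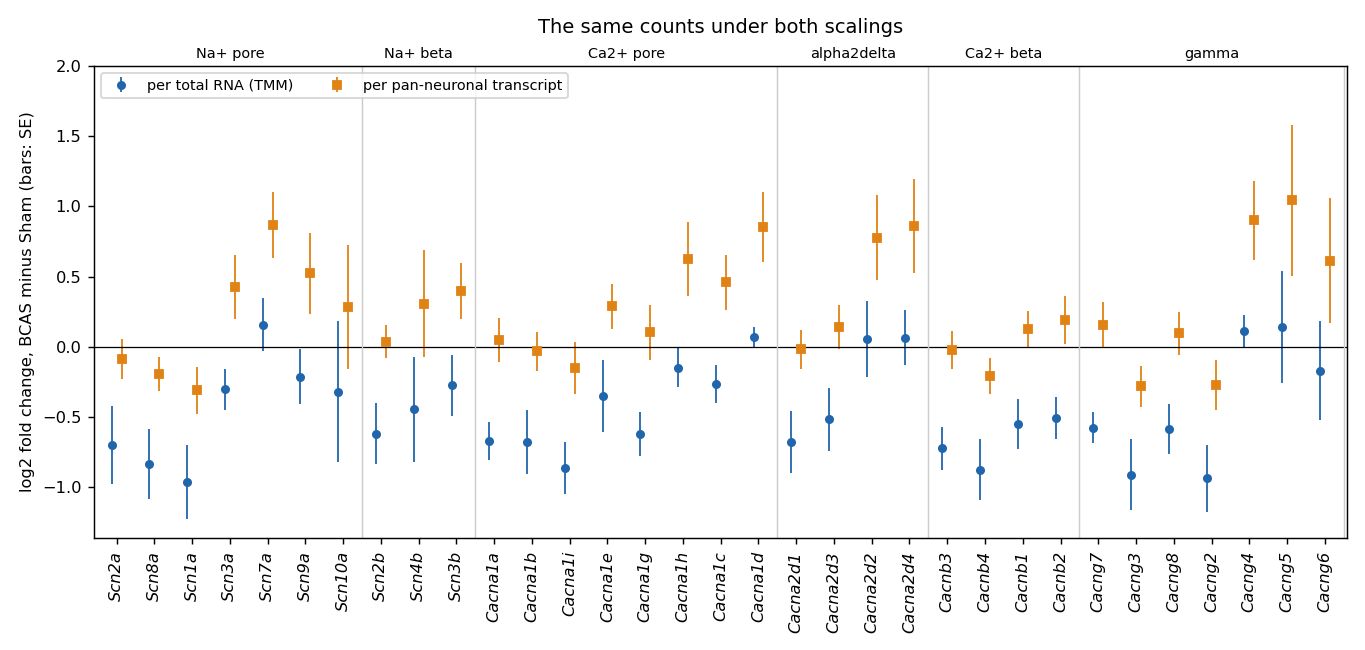
The log2 fold change (BCAS minus Sham) of each of the 33 tested subunit genes with its SE, scaled by TMM to the whole library (circles) and to 12 pan-neuronal markers (squares). The median moves from -0.51 to 0.16, and the genes that fell on the library scale lie between -0.31 and 0.19 on the neuronal scale.

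Genes whose products act with these channels were followed on 7 lists of 39 genes, all of which were tested. Relative to the library, 21 fell and 2 rose (12.8% and 19.2% of all genes), with a median log2 fold change of -0.55. Without any 1 of the Sham mice, BCAS mouse 3 or BCAS mouse 4 between 2 and 8 fell (2.37% to 8.21% of all genes), and without BCAS mouse 2 it was 30 (20.9% of all genes). With library size alone it was 13 (7.55% of all genes) and with the replicate block 14 (1127 of all 17136 genes). Relative to the pan-neuronal markers 0 were lower (2 at an unadjusted p under 0.05, Rims1 and Cabp1) and 8 higher, with a median of 0.14. Of all genes 0.385% were lower and 57.5% higher on that scale, with a median of 0.76. By list, 3 of 4 intracellular fibroblast growth factors, 2 of 6 initial segment genes, 3 of 4 genes of the sodium leak channel complex, 4 of 6 release site genes, 5 of 10 AMPA receptor genes and 4 of 5 calcium sensor genes fell. The smallest p among those that fell belonged to Cabp1, a calcium-binding protein that modulates calcium channels, with 186 ± 59.1 CPM in Sham and 78.4 ± 17.3 CPM in BCAS mice (SD, n = 4; log2 fold change -1.24 ± 0.25, SE; adjusted p = 0.00911). Stac2, an adaptor of L-type channels (-1.03, adjusted p = 0.0162), and Rimbp2, which ties calcium channels to release sites (-0.81, adjusted p = 0.0178), followed.

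The 2 partners that rose were both RGK proteins, small GTPase relatives that bind calcium beta subunits and inhibit the current. Gem was at 1.93, 2.81, 3.78 and 2.66 CPM in Sham mice and at 10.7, 4.22, 8.59 and 7.79 CPM in BCAS mice (log2 fold change 1.48 ± 0.31, SE; adjusted p = 0.0102). Rrad was at 1.19, 1.31, 1.94 and 0.965 CPM in Sham mice and at 9.23, 2.27, 4.27 and 3.98 CPM in BCAS mice (1.86 ± 0.44, SE; adjusted p = 0.0155). Neither overlapped between groups, and BCAS mouse 1, which had the lowest channel transcripts, had the highest level of both. It also had the highest sums of microglial, leukocyte, astrocyte and fibroblast markers of all mice, and the part of those cells in the level of Gem and Rrad was not tested. The other RGK genes, Rem1 and Rem2, had log2 fold changes of 0.57 and 0.36 and did not pass the test (adjusted p = 0.260 and 0.348).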

How the data were processed

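RNA-seq of the right cortex of 4 Sham and 4 BCAS mice was analysed, 1 mouse per library, grouped by the sample labels. Reads were trimmed by the authors (Trim Galore), mapped to mm10 (HISAT2) and sorted (SAMtools 1.9), and unnormalized counts per gene were deposited. The file headers name featureCounts 2.0.1 with GENCODE vM20 and neither a strand option nor one for reads on several genes, whereas the methods name release 1.6.3 and RefSeq genes. Symbols were matched by gene ID for 54723 of 54752 genes.

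From these counts, edgeR 4.0.16 (R 4.3.3) compared the groups with TMM factors and its quasi-likelihood test for the 17136 genes that passed filterByExpr (at least 10 counts, at least 15 in total), with Benjamini-Hochberg adjustment over the genes tested. A second fit used the geometric mean of 12 pan-neuronal markers as the library scale. The 10 log2 ratios of counts per exon kilobase, with 0.5 added, were compared by exact two-sided permutation over 70 arrangements. Class sums were described without a test. Alternatives were DESeq2 size factors, upper quartile and library size alone, no filter and 10 counts in every library, DESeq2 1.42.0, limma 3.58.1 (voom, and on log2(CPM + 1)), a replicate block, excitatory markers as the scale, 2 counts added to ratios, and leaving out each mouse. The fits were tested on simulated data. Figures were drawn with matplotlib 3.10.9.

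Of the members, 2, and 1 of the 10 ratios, are not reported here and enter no count, sum or median of members; the other 37 were accounted for. Values in every mouse were given for members at an adjusted p under 0.05 and for the highest member of each class, and partners were named as the 3 of smallest p in each direction. Values of Scn4b, Cacna1d, Cacna2d2 and the marker Pvalb by mouse were added after they had been seen. The members and the lists were chosen with earlier results of these data known. Promoter sequences came from RefSeq (GRCm38.p6). Where a gene overlaps an antisense gene, unstranded reads cannot be told apart.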

Additional observations from a re-analysis of the deposited data

Results flagged for a closer look

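Of the 66 groups of 4 mice formed by the 33 tested genes, 3 held a mouse far from the other 3 by Dixon's test at the 95% level, which chance gives in about 1 in 20 groups. Scn7a stood at 7.90 CPM in Sham mouse 1 and at 5.95 to 6.22 CPM in the other Sham mice. Scn4b stood at 56.1 CPM in Sham mouse 3 and at 165 to 182 CPM in the others. Cacna1e stood at 408 CPM in Sham mouse 3 and at 283 to 298 CPM in the others.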

How the results depend on the processing

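Under the normalization, filter and test alternatives 10 to 17 subunit genes fell, against 15, with library size alone giving 10, all of them among the 15. Library size alone also lowered the calcium beta count from 4 to 2, the auxiliary count from 9 to 5, the alpha2delta count from 1 to 0 and the partner count from 21 to 13, and gave 1294 lower and 3984 higher calls over all genes (2199 and 3291 with TMM). DESeq2 and limma on log2(CPM + 1) each gave 1 sodium beta gene, and limma-voom and limma on log2(CPM + 1) each gave 1 gene past both thresholds. The replicate numbers did not pair the mice, with correlations of -0.045, -0.10, -0.0082 and 0.0013 between same-numbered deviations. With the replicate block 11 subunit genes fell, among them 0 sodium pore genes and 3 pore-forming genes, and 2 were higher on the neuronal scale. Lower calls over all genes were then 1127 and higher calls 2419. On the neuronal scale the count of higher genes was 10 with excitatory markers (median 0.58, and 1.20 over all genes) and 3 with limma-voom, which called 7236 of all genes higher. With no filter, 1678 genes fell and 3314 rose. Leaving out each mouse gave 4 to 20 lower subunit genes, 0 to 1 higher (Scn11a without Sham mouse 3, then set against 0 counts) and 0 to 5 past both thresholds, where 418 to 3675 of all genes fell and 2131 to 4491 rose. By class it gave 0 to 3 sodium pore, 0 to 1 sodium beta, 2 to 6 calcium pore, 0 to 2 alpha2delta, 1 to 4 calcium beta and 1 to 4 gamma genes, which made 2 to 9 pore-forming and 2 to 11 auxiliary genes. It gave 2 to 30 lower and 1 to 2 higher partners, and 0 to 9 higher genes on the neuronal scale. Signs turned, with the range over the fits without a mouse, for Cacna2d2 (-0.32 to 0.21, -0.32 without BCAS mouse 4, and -0.052, -0.044 and -0.051 with limma-voom, limma on log2(CPM + 1) and the block), Cacng5 (-0.15 to 0.46, negative without Sham mouse 1 or BCAS mouse 1), Cacng6 (-0.35 to 0.19, positive without Sham mouse 2), Cacna2d4 (-0.066 to 0.19, negative without Sham mouse 3) and Scn10a (-0.57 to 0.029, positive without BCAS mouse 1), none of which was called. They also turned for the ratio of Cacna1b to Cacna1a (-0.19 to 0.060, positive without Sham mouse 3 or BCAS mouse 1). Causes were not tested.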

Other observations

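Sham mice 1 and 3 held many of the extreme values among the Sham mice, in both directions. Sham mouse 1 was the lowest of the 4 for 8 and the highest for 13 of the 33 tested genes. Sham mouse 3 was the lowest for 16 of the 33 tested genes, among them Scn8a, Scn1a, Cacna1a, Cacna1i, Cacnb3, Cacnb4, Cacng7 and Cacng2, and the highest for 10, among them Scn2a, Scn3a, Scn3b, Cacna1e, Cacna1c and Cacna2d1. The log2 ratio of Scn1a to Scn2a was -1.30 in mouse 3 and -0.30, -0.68 and -0.62 in Sham mice 1, 2 and 4. The summed level of 6 oligodendrocyte markers was 3776 CPM in mouse 3, against 5816 to 6076 CPM in the other Sham mice. BCAS mouse 2 had the lowest ratio of Scn1a to Scn2a among the BCAS mice, at -1.23, and the lowest oligodendrocyte sum, at 5276 CPM. The part of tissue content in these values was not tested.

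The median coefficient of variation of the 33 genes was 12.6% in Sham and 27.1% in BCAS mice, against 11.1% and 19.0% over all tested genes. It was larger in BCAS mice for 24 genes and smaller for 9, the latter including Cacna1i, Scn3a, Cacna2d4 and Cacng6, and larger for 69.3% of all tested genes. Whether the spread differed between the groups was not tested.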
